A study of Mus musculus with 6 samples.

Results

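The genes described here are 34 genes listed by symbol as marking retinal endothelium, its junctions and the transporters of the blood-retina barrier, out of 55573 genes in the count table. The list was taken by name, and all 34 genes were found in the table with at least 1 count. The libraries are labelled as made from sorted mouse retinal ganglion cells (RGCs), whose axons make up the optic nerve. The mice were C57BL/6 carrying floxed Myh9 and Myh10. The eyes of the group labelled dKO had received AAV2-Cre, a viral vector carrying Cre recombinase, and those of the group labelled WT had received AAV2-GFP, a vector carrying a fluorescent protein; both groups carry the floxed alleles. Tissue was taken 2 weeks after injection, each library pooled 3 retinas from 3 mice, and there were 3 libraries per group. The sources used here name no surface marker or reporter for the sort and no age or sex of the mice.

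Retinal vessels are lined by endothelial cells that, with pericytes and glial end-feet around them, form the inner blood-retina barrier. These cells are recognised by VE-cadherin (Cdh5), PECAM-1 (Pecam1), the receptor Tie1, the transcription factor Erg and the tight junction protein claudin-5 (Cldn5), and their barrier state by transporters and by low PLVAP, a protein of leaky capillaries. Several of the listed genes are not restricted to endothelium: Bsg, Slc2a1 and Tjp1 are used by many cell types, Kdr has been described in Müller glia and retinal neurons, Flt1 and Pecam1 also in monocytes and macrophages, and Ly6a also in lymphocytes.

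Library totals were 4569880 to 6146226 counts, but a ribosomal RNA row, CT010467.1, took 64.2% to 92.8% of them. Counts outside that row, called non-ribosomal counts here, were 346037 to 576060 in 5 libraries and 1636581 in dKO replicate 3, which also had the lowest ribosomal RNA share. The libraries labelled dKO thus held 2665968 such counts together and those labelled WT 1286468, so raw counts given below are to be read against these sums and not against each other. The values of the targeted genes overlapped between the groups. Myh9 was at 57.7 to 65.7 CPM in the libraries labelled dKO and 60.2 to 67.9 CPM in those labelled WT. Myh10 was at 14.06 to 20.5 and 16.2 to 19.8 CPM. Counts cover each whole gene, parts outside the floxed exons included, and all cells of a library. Deletion in RGCs was thus not tested by these values. CPM are counts scaled to a fixed library total after scaling the libraries to each other by TMM, the ribosomal RNA row included in the totals. Whether the 2 groups took eyes of the same mice is not in the labels, and p-values measure the spread among these 6 libraries.

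The sum of the 34 genes was small and was dominated by a few of them. Together they held 15750 of 3952436 non-ribosomal counts. Their share of these was 0.386%, 0.379% and 0.396% in dKO replicates 1 to 3 and 0.423%, 0.428% and 0.395% in WT replicates 1 to 3, or 0.387% ± 0.00808 and 0.415% ± 0.0176 (SD, n = 3 each), and the ranges met at their edges. In TMM-scaled CPM the sums were 423.1, 414 and 419.2 in dKO replicates 1 to 3 and 457.4, 465.8 and 441.2 in WT replicates 1 to 3. On that scale they did not overlap, and the sum was not tested. Kdr, Bsg, Flt1, Slc2a1, Tjp1, Ly6a and Abcg2, the 7 genes with over 200 counts each, made up 93.6% of the summed counts, and Kdr and Flt1 alone 51.8%. The other 27 genes made up 6.41%. In all, 10 of the 34 had fewer than 20 counts over the 6 libraries, and 11 were at 0 in at least 1 library.

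Set against each other per kilobase of exons, the listed genes ranged from abundant to nearly absent, and the means of the defining endothelial genes were at 0.938 or lower. Bsg was highest at 59.4 ± 3.67 CPM per kilobase (SD over the 6 libraries), rank 22 of the 8287 protein-coding genes tested. Kdr followed at 17.3 ± 1.35 (rank 140), Ly6a at 10.2 ± 2.95 (rank 258), Slc2a1 at 9.24 ± 1.05 (rank 300), Flt1 at 5.24 ± 0.466 (rank 614) and Tjp1 at 2.57 ± 0.164 (rank 1616). Ly6a and Slc2a1 did not differ beyond their spread. Cldn5 was at 0.938 ± 0.649, Pecam1 at 0.518 ± 0.0783, Cdh5 at 0.173 ± 0.171, Tie1 at 0.0969 ± 0.0846 and Erg at 0.0628 ± 0.0938 CPM per kilobase. From Itm2a downwards, each gene differed from the next in this order by less than the larger of their SDs.

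**Figure D1:**
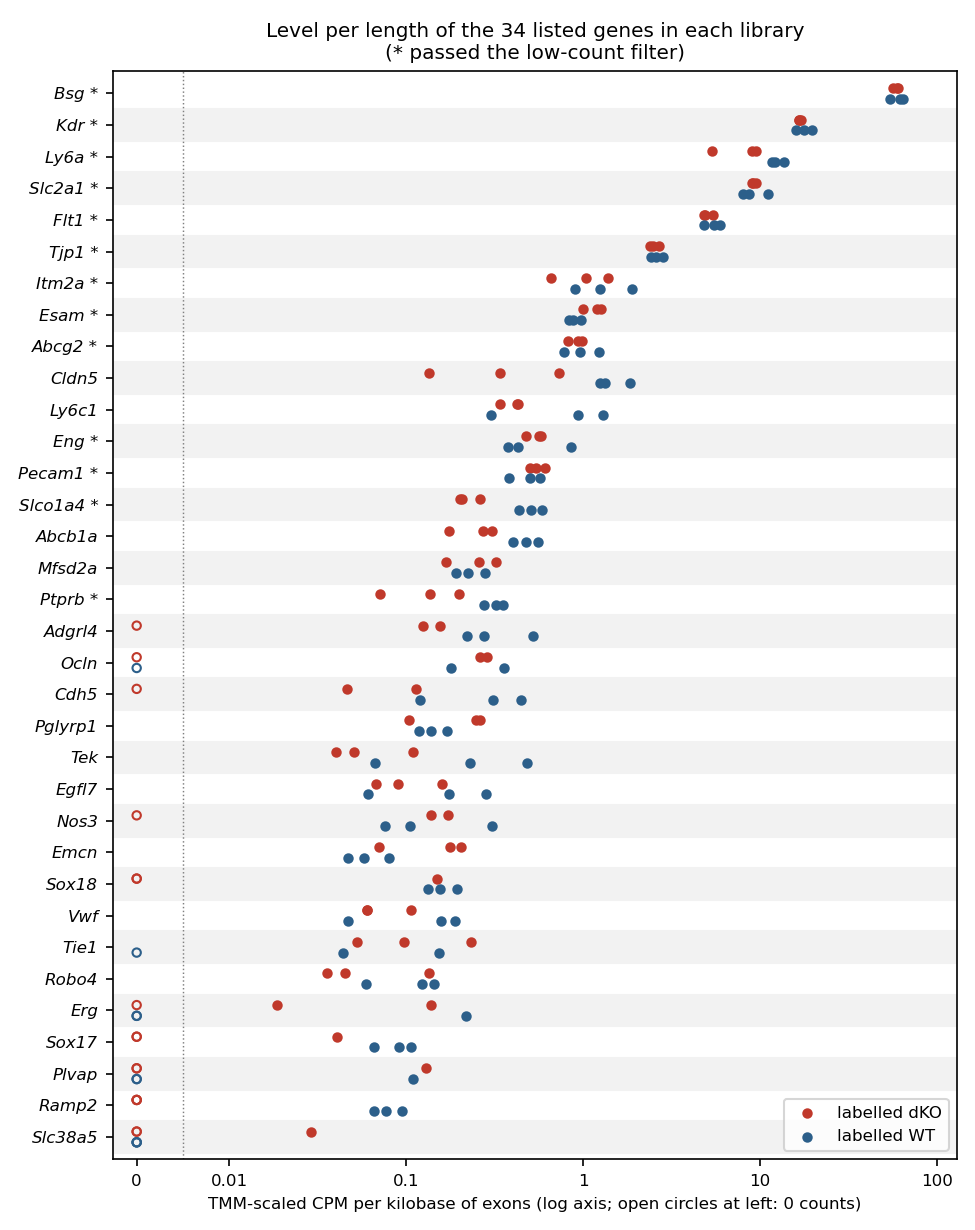
TMM-scaled CPM per kilobase of exons (x, log axis, with open circles at the left for 0 counts) of each listed gene (y, highest mean at the top) in the 3 libraries labelled dKO and the 3 labelled WT; a star marks genes that passed the low-count filter. Bsg, at 59.4 CPM per kilobase, and Kdr, at 17.3, stand above all others, while Cdh5, Tie1 and Erg lie below 0.2 on average.

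The marker genes of the list were far apart in level. Per kilobase, Kdr was 33.5 times as high as Pecam1 and 178.8 times as high as Tie1, and Flt1 was 5.59 times as high as Cldn5. In raw counts over all 6 libraries, Kdr had 5630 and Flt1 2521, against 117 for Pecam1, 44 for Cldn5, 19 for Cdh5, 16 for Tie1 and 6 for Erg. Those 5 defining genes together took 0.00469%, 0.00485% and 0.00440% of non-ribosomal counts in the libraries labelled dKO and 0.00601%, 0.00636% and 0.00657% in those labelled WT. Müller glia and astrocyte markers took 3.16% to 3.42% in the libraries labelled dKO and 3.06% to 3.16% in those labelled WT, and mural cell markers 0.202% to 0.220% and 0.186% to 0.195%. RGC markers took 0.0263% to 0.0268% in the libraries labelled dKO and 0.0216% to 0.0224% in those labelled WT. Libraries labelled as RGCs thus held a larger summed share of these glial and mural markers than of RGC markers. The make-up of the sorted cells was not tested. The most abundant listed genes thus stood far above the genes that define endothelium in level. Whether they varied together with those genes, and from which cells their reads came, was not tested. In bulk RNA, fewer cells of a type and less RNA per cell cannot be told apart.

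**Figure D2:**
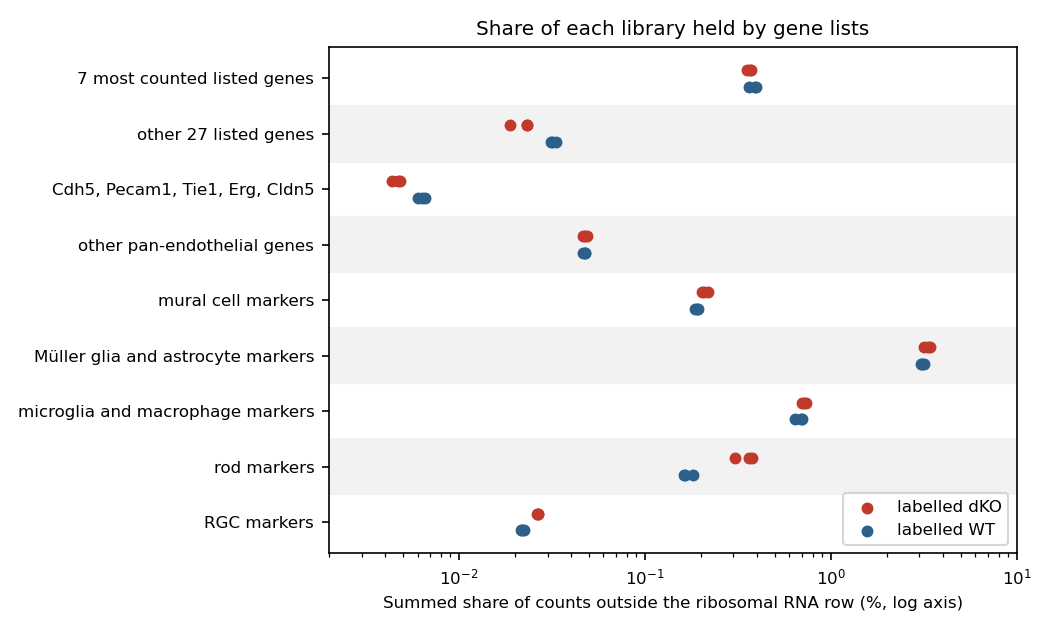
Summed share of non-ribosomal counts (x, percent, log axis) for parts of the list and for marker lists of other cell types (y), with 1 point per library. The 5 defining endothelial genes lie between 0.00440% and 0.00657%, and the 7 most counted listed genes between 0.356% and 0.397%.

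The comparison asks whether these transcripts differed after Cre was delivered to eyes with floxed Myh9 and Myh10. Of the 34 genes, 13 had enough counts to pass edgeR's low-count filter, and 2 of these were lower and none higher in the libraries labelled dKO: Ptprb, the endothelial phosphatase that restrains the receptor Tie2, and Ly6a, the surface protein Sca-1. Of all 8444 genes tested, 1.92% were called (adjusted p under 0.05 by edgeR's quasi-likelihood test with Benjamini-Hochberg adjustment), 1.18% as lower and 0.734% as higher. At an unadjusted p under 0.05, 3 of the 13 passed, all lower, against 12.5% of all genes tested (6.88% lower). Estimates were negative for 10 of the 13 and for 50.2% of all genes tested. The median log2 fold change of the 13 was -0.071, beside -0.00067 for all genes tested. A scarce gene can pass the filter through the group in which it is higher, so the 13 do not stand for the list. Fitted without that filter, 1 of the 34, Ptprb, was called by edgeR, against 0.825% of 21821 genes with a count. In that fit 9 of the 34 had an unadjusted p under 0.05, all lower, against 3.24% of those genes lower at that p. The 21821 include genes with very few counts, and among the 8444 that passed the filter the share lower was 6.88% in the main fit. The 9 were Ptprb, Ly6a, Slco1a4, Cldn5, Cdh5, Abcb1a, Adgrl4, Tek and Ramp2, and the last 6 of these had too few counts for the filter. DESeq2 called 0 of the 13 (3 at an unadjusted p under 0.05), limma-voom called 2, Ptprb and Slco1a4 but not Ly6a, and edgeR called 0 listed genes without dKO replicate 1, WT replicate 1 or WT replicate 3. Scaled by library totals alone, the median log2 fold change of all genes moved to 1.20, and the values were 0.65 for Ly6a and -0.033 for Ptprb, or -0.54 and -1.23 relative to that median.

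**Figure D3:**
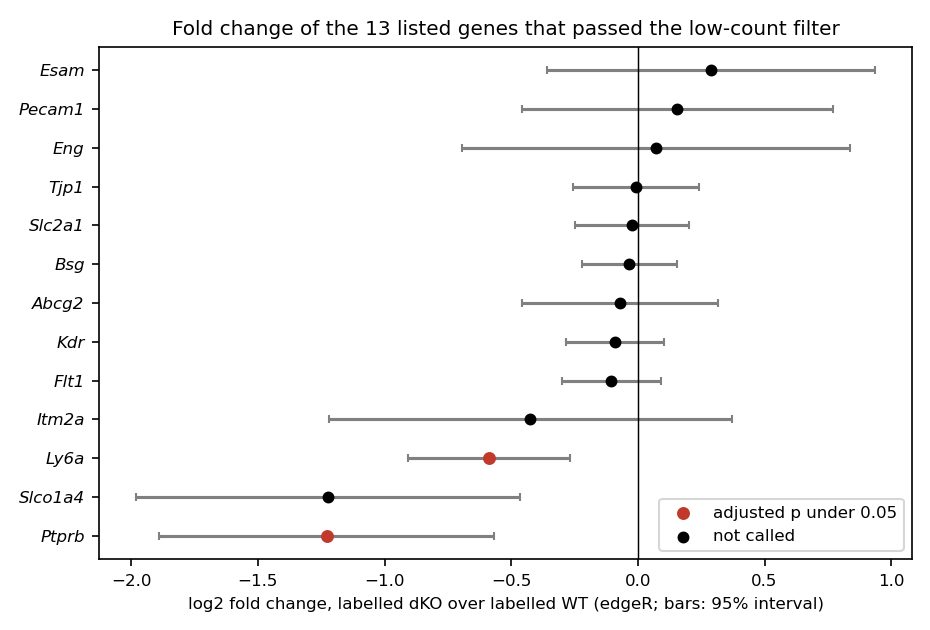
Log2 fold change of the libraries labelled dKO over those labelled WT (x; points are edgeR estimates, bars 95% intervals) for the 13 listed genes that passed the low-count filter (y). Ptprb, Slco1a4 and Ly6a lie at -1.23, -1.22 and -0.59 with intervals below 0, and the intervals of the other 10 genes include 0.

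The abundant VEGF receptors differed by less than the spread between libraries. Kdr (VEGFR2, the main signalling receptor for VEGF-A; ENSMUSG00000062960, chromosome 5, 75932827 to 75978458 on the minus strand in GRCm38) was at 154.0, 150.9 and 149.8 CPM in dKO replicates 1 to 3 and 160.9, 178.8 and 144.5 CPM in WT replicates 1 to 3. The WT values spanned all 3 dKO values. Its log2 fold change was -0.089 ± 0.097 (SE; edgeR adjusted p = 0.776), and the 95% interval of the ratio ran from 0.822 to 1.08. Flt1 (VEGFR1, a high-affinity VEGF receptor that also occurs as a soluble decoy; chromosome 5, 147561604 to 147726011, minus strand) was at 73.1, 66.2 and 65.2 CPM in the libraries labelled dKO and 74.4, 80.5 and 65.02 CPM in those labelled WT. These values overlapped, with a log2 fold change of -0.11 ± 0.098 (adjusted p = 0.736) and a ratio interval of 0.812 to 1.06. Counts per gene do not separate the soluble from the membrane form.

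Of the angiopoietin receptors and their phosphatase, Ptprb was lower in the libraries labelled dKO and Tek and Tie1 were too scarce for the low-count filter. Ptprb (VE-PTP; ENSMUSG00000020154, chromosome 10, 116275523 to 116389535, plus strand) had 5, 11 and 28 counts in dKO replicates 1 to 3 and 17, 15 and 17 in WT replicates 1 to 3. Scaled, this was 0.952, 2.65 and 1.81 CPM in the libraries labelled dKO and 3.69, 4.71 and 4.30 CPM in those labelled WT, so all 3 dKO values lay below all 3 WT values. The log2 fold change was -1.23 ± 0.33 (SE; edgeR adjusted p = 0.0266), a ratio of 0.427 with a 95% interval of 0.270 to 0.675. DESeq2 did not call it (adjusted p = 0.293), and leaving out any library except dKO replicate 2 ended the call (adjusted p 0.0805 to 0.122) while the log2 fold change stayed between -1.34 and -1.04. Tek (Tie2, the angiopoietin receptor) had 10 counts in the libraries labelled dKO and 15 in those labelled WT, with overlapping scaled values. For Tek, edgeR without the filter gave -1.60 ± 0.65 (SE, unadjusted p = 0.0133, adjusted p = 0.415). Tie1, its orphan partner, had 12 and 4 counts in the libraries labelled dKO and WT, also overlapping.

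Junction genes split between Tjp1, which many cells use, and the endothelial members, which were scarce. Tjp1 (ZO-1, a scaffold of tight junctions) was at 19.7 ± 1.14 CPM in the libraries labelled dKO and 20.4 ± 1.57 CPM in those labelled WT (SD, n = 3 each), a log2 fold change of -0.0086 ± 0.12 (edgeR adjusted p = 0.987). Cldn5 (the main claudin of brain and retinal capillaries; chromosome 16, 18776847 to 18778262, plus strand) had 1, 2 and 16 counts in dKO replicates 1 to 3 and 12, 6 and 7 in WT replicates 1 to 3. Its scaled values were 0.190, 0.482 and 1.04 CPM in the libraries labelled dKO and 2.60, 1.89 and 1.77 CPM in those labelled WT, so the highest dKO value lay below the lowest WT value. The ratio of the summed scaled counts was 0.359 (95% exact binomial interval 0.187 to 0.680, counting error only). Fitted by edgeR without a low-count filter, the log2 fold change was -1.45 ± 0.48 (SE), and it did not pass (adjusted p = 0.178). Ocln (occludin) had 22 and 10 counts in the libraries labelled dKO and WT, with 0 in 1 library of each group.

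Cdh5, the adherens junction protein that defines endothelium, had 0, 2 and 3 counts in dKO replicates 1 to 3 and 6, 6 and 2 in WT replicates 1 to 3. In scaled values the libraries labelled dKO lay at 0, 0.482 and 0.194 CPM and those labelled WT at 1.30, 1.89 and 0.506 CPM, just short of overlapping. The ratio of summed scaled counts was 0.169 (0.0476 to 0.496, counting error only), and edgeR without the filter gave -2.42 ± 0.77 (SE; adjusted p = 0.126). Pecam1 and Esam, adhesion molecules of the contacts between endothelial cells that blood cells and platelets also carry, did not lie lower. Pecam1 was at 3.43 ± 0.353 CPM in the libraries labelled dKO and 3.02 ± 0.588 CPM in those labelled WT (log2 fold change 0.15 ± 0.31, edgeR adjusted p = 0.893). Esam was at 3.43, 3.61 and 2.85 CPM in the libraries labelled dKO and 2.39, 2.51 and 2.78 CPM in those labelled WT, the only listed gene whose dKO values all exceeded its WT values, but its log2 fold change of 0.29 ± 0.32 did not pass (adjusted p = 0.786). Platelet, red cell and neutrophil markers summed to 14 counts in the libraries labelled dKO and 2 in those labelled WT. The scaled sums overlapped, at 0.389 to 0.963 CPM and 0 to 0.629 CPM. The part of blood cells in the Pecam1 and Esam values was not tested.

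Among the transporters, Bsg, Slc2a1 and Abcg2 were the most counted, and edgeR called none of the 4 that were tested, of 7 listed. Bsg (basigin, which carries lactate transporters to the membrane; chromosome 10, 79704491 to 79711969, plus strand) was at 109.3, 102.1 and 108.1 CPM in the libraries labelled dKO and 112.5, 98.1 and 116.1 CPM in those labelled WT. Slc2a1 (GLUT1, the glucose transporter of the barrier) was at 32.2, 33.2 and 31.5 CPM in the libraries labelled dKO and 30.6, 28.0 and 39.0 CPM in those labelled WT. For both, the WT values enclosed the dKO values, with log2 fold changes of -0.034 ± 0.094 and -0.023 ± 0.11 and ratio intervals of 0.858 to 1.11 and 0.841 to 1.15. Abcg2, a drug efflux pump, was at 7.46 ± 0.648 CPM in the libraries labelled dKO and 8.06 ± 1.88 CPM in those labelled WT (-0.071 ± 0.19, edgeR adjusted p = 0.928).

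Slco1a4 (an organic anion transporter of brain endothelium; chromosome 6, 141805440 to 141856199, minus strand) was at 1.33, 1.69 and 1.30 CPM in the libraries labelled dKO and 3.25, 3.77 and 2.78 CPM in those labelled WT, from 34 and 38 counts. The groups did not overlap, and the log2 fold change was -1.22 ± 0.38 (SE; edgeR adjusted p = 0.0750), which limma-voom called (adjusted p = 0.0459). Reads of near-identical relatives may be shared, and the relatives Slco1a1, Slco1a5 and Slco1a6 together had 1 count. Abcb1a (P-glycoprotein, the efflux pump of the barrier) was at 0.952, 1.69 and 1.49 CPM in the libraries labelled dKO and 2.60, 2.20 and 3.04 CPM in those labelled WT, again without overlap. The ratio of its summed scaled counts was 0.534 (0.320 to 0.895, counting error only), and edgeR without the filter gave -0.87 ± 0.39 (adjusted p = 0.562). Its close paralog Abcb1b had 46 counts in the libraries labelled dKO and 17 in those labelled WT. Mfsd2a, the lipid transporter that restrains transcytosis at the barrier, had 14 and 6 counts in the libraries labelled dKO and WT (scaled means 0.562 ± 0.172 and 0.523 ± 0.0986 CPM), and Slc38a5, a glutamine transporter, had 1 count in all 6 libraries.

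The endothelial transcription factors were close to absent in both groups. Erg, which keeps endothelial identity, had 0, 2 and 1 counts in dKO replicates 1 to 3 and 0, 0 and 3 in WT replicates 1 to 3. Sox17 had 3 counts in the libraries labelled dKO, all in replicate 3, and 5 in those labelled WT. Sox18 had 1 and 3 counts in the libraries labelled dKO and WT. The scaled values of Sox17 were 0, 0 and 0.194 CPM in the libraries labelled dKO and 0.434, 0.314 and 0.506 CPM in those labelled WT, without overlap, while those of Erg and Sox18 overlapped. Fitted by edgeR without the filter, none of the 3 passed (adjusted p 0.778 to 0.803), from 18 counts in all.

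Ly6a was the only abundant listed gene that was called. This gene (Sca-1, an interferon-inducible surface protein of stem cells, lymphocytes and endothelium; ENSMUSG00000075602, chromosome 15, 74994877 to 74998031, minus strand) had 34, 45 and 177 counts in dKO replicates 1 to 3 and 76, 45 and 58 in WT replicates 1 to 3. Scaled, these were 6.47, 10.8 and 11.5 CPM in the libraries labelled dKO and 16.5, 14.1 and 14.7 CPM in those labelled WT, with no overlap. The log2 fold change was -0.59 ± 0.16 (SE; edgeR adjusted p = 0.0290), a ratio of 0.665 (0.533 to 0.830). It did not pass with DESeq2 (adjusted p = 0.367) or limma-voom (0.0614), nor without dKO replicate 1 (0.1995), WT replicate 1 (0.249) or WT replicate 3 (0.0524). Ly6c1 had 17 counts in each group, at 0.571 to 0.722 CPM in the libraries labelled dKO and 0.506 to 2.17 CPM in those labelled WT; reads of this gene family can be shared, and Ly6c2 had 125 and 82 counts in the libraries labelled dKO and WT. T, NK, B and plasma cell markers took 0.0637% to 0.0768% of non-ribosomal counts in the libraries labelled dKO and 0.0691% to 0.0741% in those labelled WT, and their part in the Ly6a value was not tested.

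Of the other surface proteins, Adgrl4 (an adhesion receptor of growing vessels) was at 0.571, 0 and 0.713 CPM in the libraries labelled dKO and 2.39, 1.26 and 1.01 CPM in those labelled WT. Its values did not overlap, and edgeR without the filter gave -1.47 ± 0.56 (adjusted p = 0.331). Eng (endoglin, a co-receptor for BMP and TGF-beta ligands) was at 2.18 ± 0.222 CPM in the libraries labelled dKO and 2.24 ± 1.06 CPM in those labelled WT (0.071 ± 0.38, edgeR adjusted p = 0.965). Emcn (endomucin, a venous and capillary glycoprotein) had 23 and 4 counts in the libraries labelled dKO and WT, with overlapping scaled values and a ratio of 2.72 (0.929 to 10.8, counting error only). Robo4 had 13 and 7 counts, and Ramp2, the partner of the adrenomedullin receptor, 0 and 3 counts in the libraries labelled dKO and WT. Nos3, Egfl7 and Eng share exon bases with expressed genes on the opposite strand, and without a stated strand setting part of their 22, 16 and 81 counts over all libraries cannot be assigned with certainty. Ramp2 shares 1103 exon bases with Vps25 on the same strand, so its 3 counts are uncertain at any strand setting.

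Genes of vessel tone, clotting and leak were also sparse. Vwf (von Willebrand factor) had 28 counts in the libraries labelled dKO and 25 in those labelled WT, at 0.963 to 1.71 and 0.759 to 3.04 CPM. Nos3 (endothelial nitric oxide synthase) had 14 and 8 counts and Egfl7 9 and 7 counts in the libraries labelled dKO and WT. Plvap, the protein of leaky capillaries, had 4 counts in the libraries labelled dKO and 1 in those labelled WT, so at this depth the ratio of a barrier gene to a leak gene could not be compared between groups. Itm2a, a membrane protein shared with lymphocytes, was at 1.79 ± 0.633 and 2.34 ± 0.872 CPM in the libraries labelled dKO and WT (-0.42 ± 0.40, edgeR adjusted p = 0.738), and Pglyrp1 had 10 and 3 counts in them.

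Counted over the whole list, 9 of the 34 genes had all 3 dKO values below all 3 WT values: Ptprb, Ly6a, Slco1a4, Cldn5, Cdh5, Abcb1a, Adgrl4, Sox17 and Ramp2. Of all 21821 genes with a count in any library, 5.27% did so, and 6.00% had all dKO values above all WT values, as Esam did; among the 8444 tested genes it was 8.31% and 8.66%. The same 9 genes were also apart on shares of non-ribosomal counts. Without dKO replicate 3, the library of low ribosomal RNA share, 11 of the 34 were lower without overlap, against 8.87% of genes with a count, and with that library thinned at random to the others' mean depth it was 8, against 5.27%. Of the 9, edgeR called Ptprb and Ly6a and limma-voom called Ptprb and Slco1a4. Sox17 and Ramp2 rest on 8 and 3 counts, those of Ramp2 uncertain through its overlap with Vps25. Cdh5 rests on 19 counts. Its dKO replicate 2 and WT replicate 3 held 2 counts each, and only the scaling set them apart (0.482 and 0.506 CPM). Summed, the 27 genes other than the 7 most counted took 0.0188%, 0.0232% and 0.0233% of non-ribosomal counts in dKO replicates 1 to 3, against 0.0333%, 0.0315% and 0.0317% in WT replicates 1 to 3. This split by abundance was made after the values were seen, so it is given as a description.

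**Figure D4:**
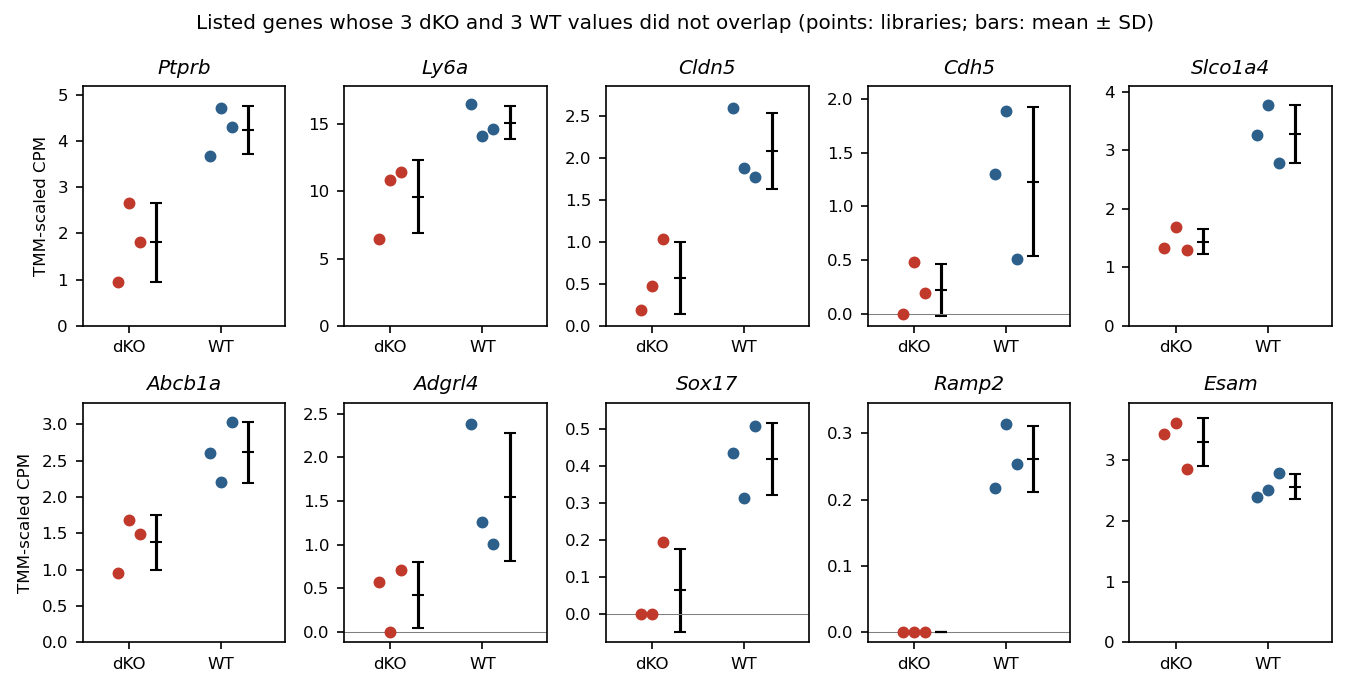
TMM-scaled CPM (y) in the libraries labelled dKO and WT (x; points are libraries, bars the mean and SD) for the 9 listed genes that lay lower in the libraries labelled dKO without overlap, and for Esam, which lay higher. Ptprb is at 0.952 to 2.65 CPM in the libraries labelled dKO and 3.69 to 4.71 CPM in those labelled WT, and the panels of Sox17 and Ramp2 stay below 0.6 CPM.

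By edgeR, other endothelial and barrier genes gave no calls. Of 16 further pan-endothelial genes, 4 were tested and edgeR called none (0 at an unadjusted p under 0.05), with a median log2 fold change of -0.0012; 2 of the 16, Cd93 and Cyyr1, lay lower without overlap and none higher, against 5.27% and 6.00% of genes with a count. Cyyr1 rests on 5 counts, and the groups overlapped for Cd93 on shares of non-ribosomal counts. Summed, they took 0.0476% ± 0.00123 of non-ribosomal counts in the libraries labelled dKO and 0.0473% ± 0.000517 in those labelled WT (SD, n = 3 each), mostly from S1pr1 and Ets1, which other cells also express. Clec14a, Myct1, Cyyr1, Rasip1 and Arhgef15, which are largely restricted to endothelium and were picked after their values were seen, had 1, 2, 2, 10 and 5 counts in the libraries labelled dKO and 2, 0, 3, 3 and 3 in those labelled WT.

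Norrin, the ligand that Müller glia secrete, acts on endothelial Fzd4, Lrp5 and Tspan12 to stabilise beta-catenin, and this signal maintains the blood-retina barrier. None of the 11 tested members of that list was called by edgeR (median log2 fold change -0.17), and 3 had an unadjusted p under 0.05, against 12.5% of all genes tested. Ctnnb1, beta-catenin itself, lay at 102.3 ± 1.63 CPM in the libraries labelled dKO and 81.04 ± 9.06 CPM in those labelled WT (0.33 ± 0.096, edgeR adjusted p = 0.0501), and limma-voom called it. Adgra2 (GPR124, a co-activator of Wnt7 signalling in brain endothelium that mural cells also express) was at 14.6 ± 1.58 and 17.8 ± 1.51 CPM in the libraries labelled dKO and WT (-0.35 ± 0.14, adjusted p = 0.222), and Axin2, a Wnt target and the third of the 3, had a log2 fold change of -0.58 ± 0.25 (0.282). Ndp and Fzd4 were too scarce to test, with 53 and 40 counts in the libraries labelled dKO and 19 and 20 in those labelled WT.

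No member of 6 further lists was called by edgeR either. Of the VEGF and angiopoietin ligands and co-receptors 5 of 13 were tested, with 0 at an unadjusted p under 0.05, among them the co-receptor Nrp2 (-0.30 ± 0.24, edgeR adjusted p = 0.690) and Vegfa, at 10.9 ± 1.21 and 12.1 ± 0.702 CPM in the libraries labelled dKO and WT (-0.20 ± 0.16, adjusted p = 0.682). Of the Notch and arteriovenous genes 5 of 14 were tested, and 4 of these had an unadjusted p under 0.05, led by Notch1 (-0.30 ± 0.10, edgeR adjusted p = 0.133) and its target Hes1 (-0.40 ± 0.17, 0.303). Of the 4, 3 were lower, and Hey2, also a Notch target, lay the other way at 0.40 ± 0.19 (edgeR adjusted p = 0.374). Of the 14, 4 lay lower without overlap (Notch1, Efnb2, Dll4 and Bmx) and 2 higher (Hey2 and Jag2). Among genes with a count, 5.27% lay lower and 6.00% higher without overlap. Efnb2 overlapped on shares of non-ribosomal counts. Dll4 had 3 counts in each group, and Bmx 1 and 5 in the libraries labelled dKO and WT. Other junction genes gave 9 tested of 14, with 2 at an unadjusted p under 0.05, Jam2 (-0.43 ± 0.17, edgeR adjusted p = 0.225) and Cdh2 (-0.23 ± 0.11, 0.366). Caveolar genes gave 4 tested of 6, with values of 0.35 ± 0.33 for Ehd2 (edgeR adjusted p = 0.738) and -0.12 ± 0.19 for Cavin1 (0.861) and 0 at an unadjusted p under 0.05. Other barrier transporters gave 11 tested of 15, 3 at an unadjusted p under 0.05, led by Lrp1 (-0.29 ± 0.096, edgeR adjusted p = 0.117) and Slc7a5 (-0.50 ± 0.22, 0.290). Of the 15, 4 lay lower without overlap (Slc7a5, Slc7a1, Slco1c1 and Lrp1) and 2 higher (Slc3a2 and Spns2), against the same 5.27% and 6.00%. Slco1c1 overlapped on shares of non-ribosomal counts. Leukocyte adhesion genes gave 4 tested of 10, 0 at an unadjusted p under 0.05, among them Vcam1 (-0.20 ± 0.12, edgeR adjusted p = 0.547) and Cd34 (0.30 ± 0.26, 0.722), and Sele and Selp were at 0 in all 6 libraries. Over these lists, the norrin, pan-endothelial and mural ones together, 63 genes were tested and 14 had an unadjusted p under 0.05, against 12.5% of all genes tested. DESeq2 also called 0, and limma-voom called Lrp1 and Ctnnb1. From which cells the reads of the genes in these lists came was not tested.

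Markers of the mural cells that share the vessel wall ranged from abundant to absent. Of 15 mural markers 10 were tested and edgeR called none (2 at an unadjusted p under 0.05, Vtn and Acta2), with a median log2 fold change of 0.043. Of the 15, 2 lay higher without overlap and none lower, against 6.00% and 5.27% of genes with a count. Rgs5, a pericyte gene, was at 94.4 ± 7.08 CPM in the libraries labelled dKO and 89.1 ± 2.79 CPM in those labelled WT (SD, n = 3 each), and Vtn (vitronectin) at 37.1 ± 3.77 and 29.2 ± 3.56 CPM (0.37 ± 0.11, edgeR adjusted p = 0.0650). Per kilobase Rgs5 stood at 20.2, above Kdr, and Pdgfrb, the receptor that draws pericytes to vessels, at 4.95 CPM per kilobase. Other mural markers were scarce: over all 6 libraries Cnn1 had 0 counts, and Anpep, Ndufa4l2, Higd1b and Des had 12, 25, 41 and 65 in the libraries labelled dKO and 8, 10, 16 and 20 in those labelled WT. Lymphatic markers were led by Pdpn and Prox1, which Müller glia also express, at 28.6 and 2.73 CPM per kilobase, and Lyve1 had 22 and 11 counts in the libraries labelled dKO and WT. Markers of the pigment epithelium, a layer that also uses Bsg and Slc2a1, were near 0, at 40 and 19 counts summed over the list in the libraries labelled dKO and WT, with 1 count of Rpe65 in all 6 libraries. Of the other marker lists, edgeR called 1 of 12 Müller glia and astrocyte genes (Gfap), 1 of 12 microglia and macrophage genes (Lyz2), 1 of 3 tested RGC genes (Nefl) and 7 of 9 tested rod genes as higher in the libraries labelled dKO and none as lower, against 0.734% and 1.18% of all genes tested. The log2 fold changes were 0.69 ± 0.12 for Gfap, 0.50 ± 0.097 for Lyz2 and 1.63 ± 0.28 for Nefl. Among rod genes they were, for example, 0.85 ± 0.25 for Pdc and 1.11 ± 0.12 for Prph2. The most abundant markers per kilobase were Glul and Apoe for Müller glia (339.7 and 314.1 CPM per kilobase), Ctss and C1qa for microglia (164.7 and 98.5), Jchain and Lck for lymphocytes (21.2 and 2.76) and Thy1 and Sncg for RGCs (3.48 and 2.01). Ttr and Rgr led the pigment epithelium list (0.247 and 0.186 CPM per kilobase) and Hba-a2 and Pf4 the blood list (0.172 and 0.071). The part of these cell types in the values of the listed genes was not tested.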

How the data were processed

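The authors deposited whole-number read counts per Ensembl gene for 6 libraries, which they had not normalized. Per the labels' protocols, total RNA of sorted cells was made into libraries with the TruSeq stranded total RNA kit, each from 3 retinas of 3 mice. STAR 2.7.0d, DESeq2 1.22.2 and GRCm38 are named in the submitters' processing notes; the sources used here name no counting program, strand setting or rule for multiply matching reads. Reads of overlapping antisense genes thus cannot be told apart. Positions and exon lengths came from GENCODE M21 on GRCm38, in which all 34 listed genes and 55480 of 55573 IDs were found.

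Genes were kept by edgeR's filterByExpr (minimum count 10, minimum total 15), scaled by TMM (factors 0.643 to 3.38, the highest for dKO replicate 3) and tested with edgeR 4.0.16 in R 4.3.3, quasi-likelihood F test with the group as the only term, adjusted over all 8444 genes tested. Each SE was taken as the absolute log2 fold change over the root of its F. Scarce genes are also given from the same fit without the filter over 21821 genes, and as ratios of summed scaled counts with 95% exact binomial intervals, which cover counting error only. Levels between genes are TMM-scaled CPM per kilobase of the union of exons. Alternatives were RLE and library-total scaling, other filters, DESeq2 1.42.0, limma-voom (limma 3.58.1), a block for the replicate number, leaving out single libraries, omission of the ribosomal RNA row and thinning of dKO replicate 3. The edgeR step was tested on simulated counts of the dKO and WT libraries. Among 8080 genes with 186 changed, it called 125, 2 of these falsely, and recovered 72.4% of 2-fold changes. The changes were placed at random over genes that had passed the filter. The recovery is thus an average over levels and does not give that for scarce listed genes. Libraries of a group were compared pairwise (chi-square per degree of freedom over tested genes 1.17 to 4.19), and each was counted as 1 replicate.

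The listed genes, the other gene lists and the tests were chosen with earlier results of these data known. The rule for naming names all 34 listed genes and, from each other list, those called or, where none was, the 2 of smallest p, and from each marker list the 2 most abundant; other genes named from these lists, such as Axin2, Hey2, Pdgfrb and scarce ones, were chosen after their values were seen. Some values that this rule covers are not reported here. Figures were drawn with matplotlib 3.10.9.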

Additional observations from a re-analysis of the deposited data

How the results depend on the processing

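The 2 calls among the listed genes depend on single libraries and on the tool. Counts of listed genes called were 0 with library-total scaling and with DESeq2, 1 without the low-count filter (Ptprb) and 0 to 2 when a library was left out; RLE scaling, a filter on CPM, omission of the ribosomal RNA row and thinning of dKO replicate 3 each gave Ptprb and Ly6a, and limma-voom gave Ptprb and Slco1a4. Library-total scaling called 3 genes in all and DESeq2 52, against 162; without single libraries the count was 90 (WT replicate 1) to 187. The median log2 fold change of the tested listed genes was 1.11 under library-total scaling, where that of all genes was 1.20, and Ly6a had 0.65 there. Leaving out a library let up to 18 listed genes pass the filter, with medians of -0.36 to -0.076, whereas over the same 13 genes they were -0.13 to -0.041. The summed share of the list was 0.0715% (dKO) and 0.0338% (WT) of library totals, and 0.229% and 0.251% of counts outside the ribosomal RNA row without Bsg, Tjp1, Slc2a1, Ocln, Ly6a and Itm2a; without 1 library it was 0.383% to 0.391% in dKO and 0.409% to 0.425% in WT. Listed genes lower without overlap numbered 8 to 13 under 7 settings added after seeing the data. With dKO replicate 3 thinned they numbered 8, against 5.27% of genes with a count. With 1 library left out they numbered 9 to 13, but 8.04% to 11.1% of genes with a count were then lower without overlap. Of 193 values of single genes under other settings, 166 either stayed called in the same direction or stayed uncalled and moved by less than 1 SE; 12 uncalled values moved by more, 14 calls were lost (7 of Ptprb and 7 of Ly6a, with the sign of Ly6a turned under library-total scaling) and 1 was gained. Labels give both groups the replicate numbers 1 to 3 with no pairing, and same-numbered libraries correlated at 0.0127 to 0.0281 in their deviations from the group means; the fit with the replicate block called 158 genes, 2 of them listed. The causes of these shifts were not tested. At 346037 to 1636581 counts outside the ribosomal RNA row, genes such as Erg, Tie1 and Cdh5 are at the limit of detection.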
